A study of Mus musculus with 6 samples.

Results

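The genes described here are 9 transcription factors that set up the border of midbrain and hindbrain and the cerebellum that forms beside it, namely the Engrailed factors En1 and En2, the paired-box factors Pax3, Pax5 and Pax8, the homeodomain factors Gbx2 and Otx1, and the LIM-homeodomain factors Lmx1a and Lmx1b. They were chosen by name, and every non-control probe that the array assigns to one of these symbols was taken. This gave 12 probes of 9 genes, out of 55681 probes and 20980 gene symbols on the array that are known to RefSeq.

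The samples were 6 pools of wild-type mouse cerebellar cells, 3 per fraction, sorted with magnetic beads and described as biological triplicates, with 50000 cells and 1 array each. The A+/G+ fraction carries ACSA-2, an astrocyte surface antigen on the protein Atp1b2, together with GLAST, the glutamate transporter Slc1a3 of astroglial cells. The study counts rare cells with ACSA-2 but no GLAST in with A+/G+, and it describes both fractions as enriched. The A-/G+ fraction carries GLAST without ACSA-2. No transgene, deletion or treatment is named for any of the 6. All the labels give strain CD1 and an age of P1 to P3, whereas the study's methods give P0 and P1 and a C57BL/6 background for wild-type mice, so that strain and age are not settled. Cerebella of either sex were pooled before dissociation. The isolation steps differed: A+/G+ cells were taken up with anti-ACSA-2 beads alone, whereas A-/G+ cells were first depleted of cells with L1CAM, ACSA-2, CD45, PSA-NCAM or Ter119, which removes neurons and blood cells, and were then selected for GLAST. Only one of the fractions was therefore depleted of neurons.

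In the embryo, Otx factors in front and Gbx2 behind meet at the isthmus, the constriction between midbrain and hindbrain, where the secreted signals Fgf8 and Wnt1 are made. En1, En2, Pax5, Pax8 and Lmx1b act in the network that starts and keeps these signals, and the Engrailed factors go on to pattern the cerebellar folds. Pax3 marks dorsal progenitors of the neural tube and the neural crest, and Lmx1a marks the roof plate and cells of the rhombic lip, the germinal edge from which choroid plexus, granule neurons and unipolar brush cells arise.

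Each value below rests on a probe of 60 bases, so that the part of the transcript a probe reads belongs with its value. The last 30 bases are shown for the probes of the 5 genes that were measured on at least 1 array. They are the array design's own sequences, written 5′ to 3′ on the strand of the transcript, and capitals mark AATAAA or ATTAAA, the hexamers that signal the end of a transcript.
En2: tgctgcttgggggtcggtgaacacatgcct
Pax3, brighter probe: gaatcttctcagaaacaaaacAATAAAaaa
Pax3, dimmer probe: gtATTAAAtatgacattgtcagcctgtagc
Gbx2: gggctacagccacaccagaagatacactaa
Lmx1a: tgacataccgagatgaaATTAAAagcctct
Lmx1b, brighter probe: cggaaactgtactgcaaacaagactaccaa
Lmx1b, dimmer probe: tgatacctccctcaccagcctcagcgactg
The hexamers were searched on the probe's own strand only. Of all 55681 probes, 8.16% hold AATAAA and 2.74% ATTAAA within the last 30 bases. In the brighter Pax3 probe 3 bases follow the hexamer, and in the Lmx1a probe 7 bases do. Such a match describes the letters of the probe and not the RNA of these cells.

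The array measured signals as the intensity of a single dye. The values given are log2 intensities after quantile normalization, which gives all arrays the same distribution, and they compare 1 probe between arrays and not 1 gene with another. A gene is represented by its probe with the highest mean over all arrays. A probe is called measured on an array where the scanner software set it well above background. The 75th percentile of intensity before normalization was 332 to 334 on the A+/G+ arrays and 56.6 to 251 on the A-/G+ arrays, and 26469 to 26653 and 18331 to 24726 probes were well above background, respectively. Slide 1 held the A+/G+ arrays and slide 2 the A-/G+ arrays, so that an effect of the slide and one of the fraction cannot be told apart. The test was limma's, fitted on the whole array, with p-values adjusted by the Benjamini-Hochberg method. A gene passed where the adjusted p was at most 0.05, and it was called where the medians of the fractions were also at least 4-fold apart. With 3 arrays against 3, an exact permutation test cannot give a p below 0.1. In such sorted pools, fewer cells of a type and less RNA per cell cannot be told apart.

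The 9 factors divided into measured and unmeasured genes. En2, Pax3, Gbx2 and Lmx1a were well above background on all 6 arrays, Lmx1b on 1 array, and En1, Pax5, Pax8 and Otx1 on none. Gbx2 was higher in A+/G+ and was the only one called, which is 1 of 9 genes beside 3.19% of all genes by the same limits in either direction and 2.77% in this one. En2 was higher in A-/G+, and with Gbx2 it made 2 of 9 genes that passed the adjusted p. Of all genes 13% passed it, 7.9% as higher in A+/G+ and 5.05% as higher in A-/G+, and of the genes measured on all 6 arrays 18.8% did. Counted by probe, 3 of 12 passed, beside 9.29% of all probes. The signals of the fractions did not overlap for En2, Pax3, Gbx2 and the unmeasured Pax8, which is 4 of 9 genes beside 42.8% of all genes and 51.5% of those measured on all arrays. The median difference of the 9 genes, taken as A+/G+ minus A-/G+ in log2 units throughout, was -0.05, and that of all genes was -0.03.

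**Figure D1:**
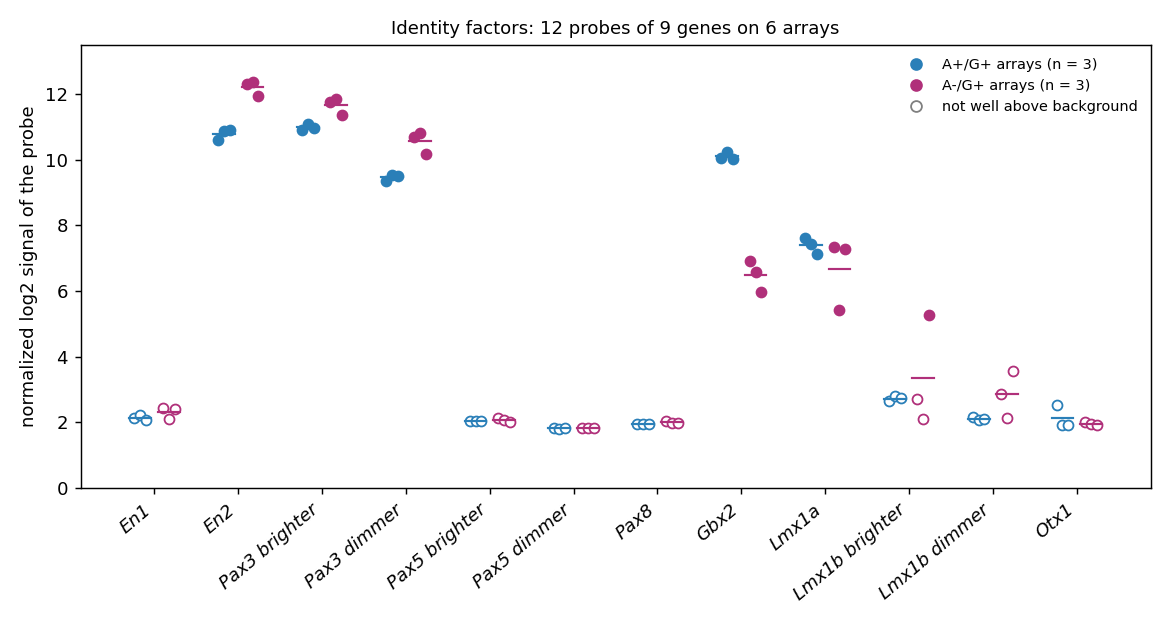
Normalized log2 signal of the 12 probes of the 9 factors on each array (vertical axis), with A+/G+ arrays in blue, A-/G+ arrays in magenta, horizontal bars at the mean of 3 arrays, and open circles where the probe was not well above background. The 3 Gbx2 points of A+/G+ lie between 10.02 and 10.24, above all A-/G+ points, whereas for En2 the A-/G+ points lie above.

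En2, which with En1 patterns the midbrain and the cerebellar folds, was higher in the A-/G+ fraction. Its probe lies on chromosome 5 of mm9 on the forward strand (chr5:28498468-28498528) and is printed on 10 spots. Its normalized log2 signal was 10.59, 10.87 and 10.89 in replicates 1, 2 and 3 of A+/G+ and 12.30, 12.36 and 11.95 in those of A-/G+. The fractions did not overlap, and replicate 3 of A-/G+ was the lowest of its fraction. The means were 10.78 ± 0.17 (SD, n = 3) and 12.20 ± 0.22 (SD, n = 3), and they differed by -1.42 (standard error 0.15, 95% interval -1.81 to -1.03, adjusted p = 0.0116 from limma). The medians differed 2.70-fold, which is under the 4-fold limit. Within an array, the spots of the probe had an SD of 0.05 to 0.17, which is technical spread only. Before normalization, the mean intensity was 2523, 3236 and 3146 in A+/G+ and 1421, 3155 and 5226 in A-/G+. These unscaled intensities overlapped, and the higher level of A-/G+ is relative to the other probes of each array. With the arrays shifted to a common 75th percentile the difference was -1.47. The adjusted p rose to 0.0554 without A+/G+ replicate 2 and to 0.0541 without A+/G+ replicate 3.

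En1, the partner that starts first in the embryo, was not measured on any array. Its probe lies on chromosome 1 (chr1:122504067-122504126, forward strand) and also has 10 spots. The intensity, averaged over the spots, was 4.13 to 6.41 on the 6 arrays, and the log2 signals were 2.09 to 2.22 in A+/G+ and 2.11 to 2.45 in A-/G+. These values are not well above background and give no order of the fractions. The last 30 bases of its probe are aggtaaggaaaacaaatatgtgtagcgatc, shown because the sequence is what the lack of signal refers to.

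**Figure D2:**
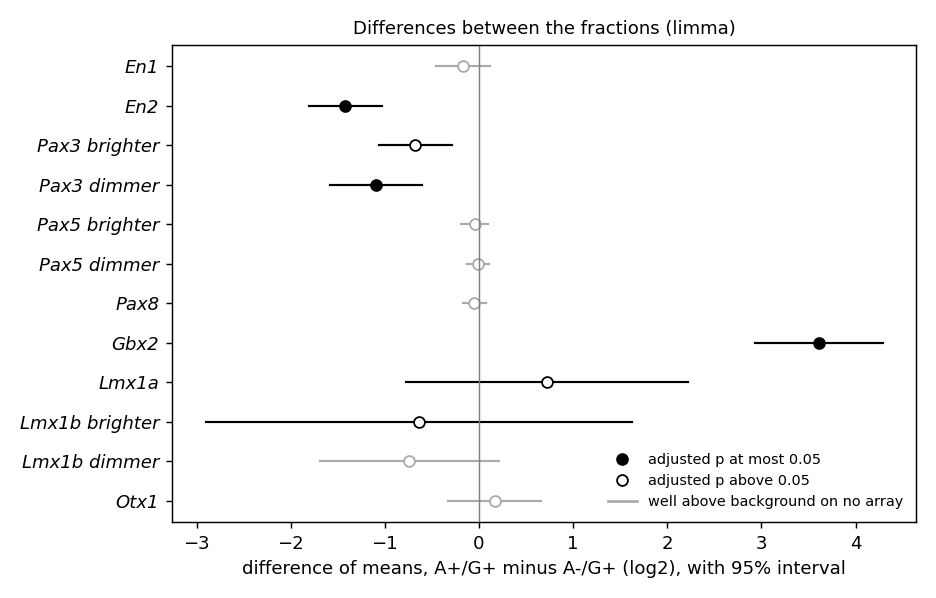
Difference of the fraction means for each of the 12 probes (horizontal axis, log2 units, A+/G+ minus A-/G+), with the 95% interval of limma as a line and filled points where the adjusted p was at most 0.05. Gray marks probes well above background on no array, and the filled points are En2 at -1.42, the dimmer Pax3 probe at -1.10 and Gbx2 at 3.61.

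Among the paired-box factors, Pax3 was the measured member. Both of its probes lie on the reverse strand of chromosome 1, the brighter probe (chr1:78099294-78099353) nearer to the 3′ end than the dimmer probe (chr1:78099476-78099535). The brighter probe, which is printed once, gave 10.89, 11.10 and 10.96 in A+/G+ and 11.75, 11.86 and 11.37 in A-/G+. The dimmer probe, with 10 spots, gave 9.35, 9.54 and 9.51 in A+/G+ and 10.69, 10.82 and 10.18 in A-/G+. On both probes the lowest A-/G+ value, that of replicate 3, still lay above the highest A+/G+ value.

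One of the Pax3 probes passed the adjusted p and the other did not. The brighter probe differed by -0.68 (standard error 0.15, 95% interval -1.07 to -0.29) with an adjusted p of 0.0620 from limma, and its medians differed 1.73-fold. The dimmer probe differed by -1.10 (standard error 0.19, 95% interval -1.59 to -0.61) with an adjusted p of 0.0338, and its medians differed 2.26-fold. The intervals overlap, and the difference between the probes was not tested. Without A-/G+ replicate 3 the brighter probe passed (difference -0.82, adjusted p = 0.0147), and without any other single array the dimmer probe no longer passed (difference from -1.13 to -0.97, adjusted p from 0.0744 to 0.121). Unscaled intensities of the brighter probe were 3090, 3764 and 3292 in A+/G+ and 958, 2209 and 3476 in A-/G+, so that here, too, the direction is relative to the rest of each array.

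Pax5 and Pax8, close relatives of Pax2 that act at the isthmus, were not measured on any array. The Pax5 probes lie on the reverse strand of chromosome 4, and the annotated interval of the brighter probe, from 44550354 to 44582908, is wider than the 60 bases of the probe. The other spans 44658421 to 44658480. Their log2 signals were 2.02 to 2.14 and 1.81 to 1.83 over the 6 arrays. The Pax8 probe (chr2:24276147-24276206, reverse strand) gave 1.94 to 2.03. Its fractions did not overlap, yet neither was well above background and the means differed by -0.05 (95% interval -0.17 to 0.07).

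Of the other Pax genes on the array, Pax6 passed, which makes 1 of 6. Pax6, a factor of the rhombic lip and of granule neuron precursors, was 9.37, 9.70 and 9.57 in A+/G+ and 11.24, 11.10 and 10.92 in A-/G+. These levels differed by -1.54 (standard error 0.13, adjusted p = 0.00730 from limma). Pax1, Pax2 and Pax9 were not measured on any array, so that the Pax2, Pax5 and Pax8 group of the isthmus had no measured member. Pax4 and Pax7 were measured on 3 and 2 arrays of A+/G+ and on none of A-/G+. They did not pass (adjusted p = 0.0715 and 0.470). The median difference of these 6 genes was -0.23.

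Gbx2, the factor on the hindbrain side of the isthmus, showed the widest gap of the 9 genes. Its probe is printed once and lies on the reverse strand of chromosome 1 (chr1:91825013-91825072). The normalized log2 signal was 10.04, 10.24 and 10.02 in A+/G+ and 6.92, 6.59 and 5.97 in A-/G+. The lowest A+/G+ value lay far above the highest A-/G+ value, and all 6 were well above background. The means were 10.10 ± 0.12 (SD, n = 3) and 6.49 ± 0.48 (SD, n = 3). They differed by 3.61 (standard error 0.26, 95% interval 2.94 to 4.29, adjusted p = 0.00553 from limma), and the medians differed 11.0-fold. With normexp background correction, which adds an offset and shrinks differences of dim probes, the medians differed 6.73-fold (adjusted p = 0.000286). The highest adjusted p with an array left out was 0.0353, without A+/G+ replicate 2. A 75th percentile shift gave a difference of 3.58.

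Markers of several other cell types were also higher in A+/G+. The 7 markers of meningeal fibroblasts were all higher in A+/G+ and all well above background on the 6 arrays, and Lum and Foxc1 passed (adjusted p = 0.0309 and 0.00380). The log2 of their summed signal was 16.38, 16.55 and 16.27 in A+/G+ and 15.30, 14.78 and 13.69 in A-/G+, the same order of arrays as for Gbx2. Col1a2 is the largest part of this sum. Lum and Col3a1 did not have the Gbx2 order in A+/G+, nor did Foxc1 in A-/G+. The Gbx2 order is not particular to this list. The sum of the 8 roof plate and rhombic lip genes, listed below, had it too. That sum was 13.03, 13.12 and 13.00 in A+/G+ and 12.94, 12.90 and 12.68 in A-/G+. The gap between the fractions alone fixes part of such an order. The defining collagens Col1a1 and Col1a2 differed by 1.64 and 1.61 (adjusted p = 0.0912 and 0.0756). Of 5 markers of the oligodendrocyte lineage 3 passed, led by Olig1 and Olig2, and the sum of the 5 was 13.62 to 13.90 in A+/G+ and 10.13 to 11.13 in A-/G+. In A+/G+ this sum is mostly Olig1. Cspg4 and Sox10 did not pass (adjusted p = 0.0643 and 0.462 from limma). Of 5 ependymal markers 4 passed, Tmem212 and Dynlrb2 by the most and Foxj1 and Rsph1 with them, at 13.00 to 13.79 and 8.61 to 10.47. Of 8 Purkinje cell markers 6 passed, among them Pcp2 and Calb1, at 12.44 to 13.82 and 10.75 to 11.15. Of 5 endothelial markers, which begin with Pecam1, only Cdh5 passed, and the sum was 12.86 to 13.46 and 10.57 to 12.92. Cldn5 is the largest part of the endothelial sum and Dynlrb2 of the ependymal sum. In A-/G+ Itpr1, which did not pass, is the largest part of the Purkinje sum. The counts of markers that passed moved with single arrays. With an A+/G+ array left out, 1 ependymal marker passed, and without A+/G+ replicate 3 the Purkinje count was 2. Without A-/G+ replicate 3, 7 meningeal, 5 oligodendrocyte and 4 endothelial markers passed. Of the 92 genes in all marker lists 29 passed, beside 13% of all genes and 18.8% of those measured on all 6 arrays. Of these 29, 11 passed under each alternative read for the gene lists but the replicate block, and all 29 kept their direction. The part of these cell types in the Gbx2 difference was not tested.

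Otx1, an Otx factor of forebrain and midbrain, was not measured on any array. Its probe on chromosome 11 (chr11:21895767-21895826, reverse strand) gave 1.91 to 2.54. None of the 4 forebrain markers passed, and Emx1 and Emx2 were well above background on no array. Their summed signal was 5.06 to 6.62 in A+/G+ and 4.96 to 7.34 in A-/G+.

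Lmx1a, which marks roof plate and rhombic lip, was measured on all arrays. Its probe is printed once, on the forward strand of chromosome 1 (chr1:169778804-169778863). It gave 7.61, 7.43 and 7.14 in A+/G+ and 7.33, 5.41 and 7.27 in A-/G+. The fractions overlapped, and replicate 2 of A-/G+ was the array that stood below the rest. The means of 7.39 ± 0.24 (SD, n = 3) and 6.67 ± 1.09 (SD, n = 3) differed by 0.72 (95% interval -0.77 to 2.22, adjusted p = 0.539 from limma). Without A-/G+ replicate 2 the difference was 0.10. The interval spans differences of both signs, and equal levels are not shown by it.

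Choroid plexus and unipolar brush cells, both derived from the Lmx1a domain, had markers on the array. The 6 choroid plexus markers, which begin with Ttr and Kcne2, did not pass, and the log2 of their sum was 15.19, 14.73 and 14.51 in A+/G+ and 15.76, 14.49 and 15.66 in A-/G+. Within each fraction this is the order of the arrays in Lmx1a, but the sum is mostly Ttr. In A-/G+ the other markers, Kcne2, Clic6, Folr1, Kl and Aqp1, were highest in replicate 3, whereas Lmx1a was highest in replicate 1. Like Lmx1a, they were lowest in replicate 2. Of the 3 markers of unipolar brush cells none passed, and Calb2 was well above background on no array. Eomes, the defining marker, was 7.58, 6.99 and 6.37 in A+/G+ and 6.78 in A-/G+ replicate 3, while it was not well above background in A-/G+ replicates 1 and 2. Their sum was 7.59 to 8.59 and 6.29 to 7.76. The part of both cell types in the Lmx1a signal was not tested.

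Lmx1b, which holds Fgf8 and Wnt1 expression at the isthmus and later acts in dopaminergic and serotonergic neurons, was measured on a single array. Its brighter probe (chr2:33495011-33495070, reverse strand) gave 2.64, 2.80 and 2.73 in A+/G+ and 2.70, 2.11 and 5.28 in A-/G+, of which the last alone was well above background. The dimmer probe (chr2:33420253-33420312, reverse strand) gave 2.15, 2.08 and 2.09 in A+/G+ and 2.85, 2.15 and 3.55 in A-/G+, none of them well above background. On both probes the highest value was that of A-/G+ replicate 3. The brighter probe differed by -0.64 (95% interval -2.90 to 1.62, adjusted p = 0.675) and the dimmer probe by -0.74 (adjusted p = 0.329). Without A-/G+ replicate 3 the difference of the brighter probe turned to 0.32. A 75th percentile shift gave the dimmer probe -2.20 with an adjusted p of 0.0291, although it was not measured on any array.

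Of the markers read for the neuron types that Lmx1b and the Engrailed factors serve, only Nr4a2 was measured on all 6 arrays. Of 5 markers of midbrain dopaminergic neurons Nr4a2 passed (higher in A+/G+, adjusted p = 0.0461). Th was 4.46 to 5.21 in A+/G+ and 4.84 to 6.02 in A-/G+, where 1 of 3 arrays measured it. Foxa2 was 5.49, 5.44 and 6.50 in A+/G+ and 1.95, 1.98 and 4.24 in A-/G+, where 1 of 3 arrays measured it. It had the largest difference of the 5, at 3.08, and did not pass (adjusted p = 0.0751 from limma). Slc6a3 was measured on 2 arrays, and Pitx3 was well above background on none. The sum of the 5, which is mostly Nr4a2, was 10.14 to 10.55 in A+/G+ and 8.93 to 9.66 in A-/G+. Of 5 serotonergic markers none passed, and Tph2, Slc6a4 and Fev were well above background on no array, with a sum of 5.57 to 6.22 and 4.58 to 5.77.

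**Figure D3:**
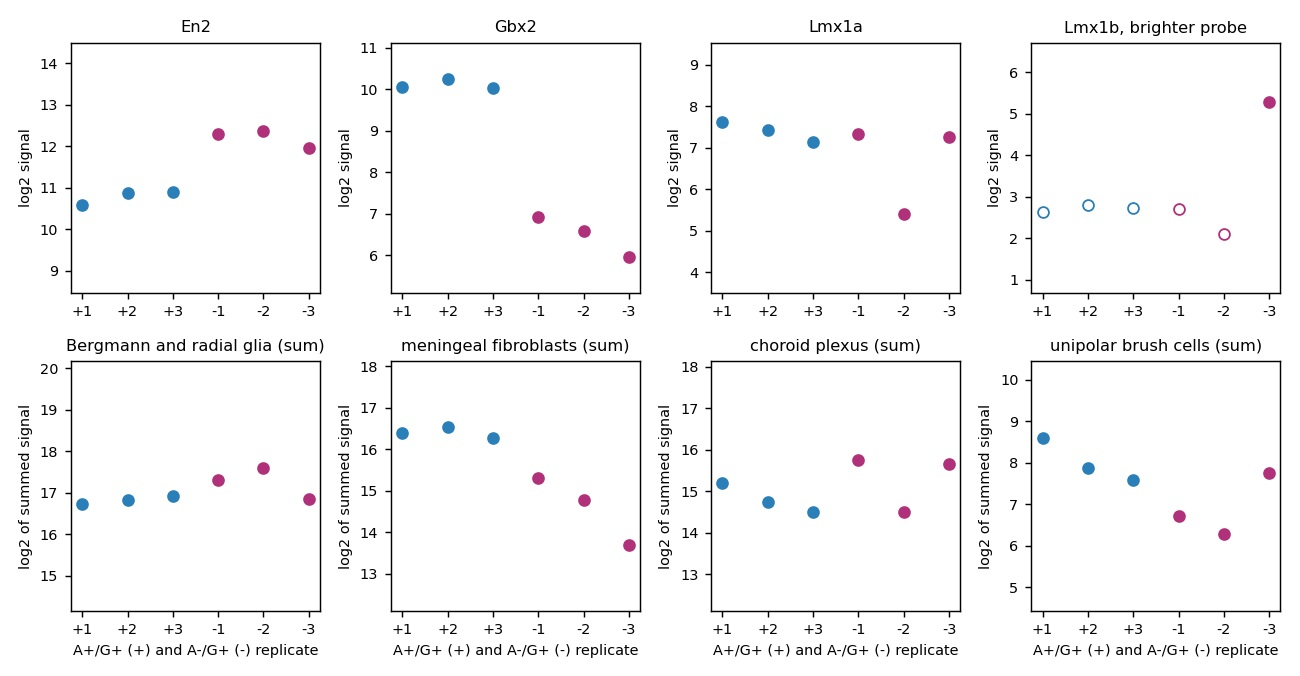
Log2 signal of En2, Gbx2, Lmx1a and the brighter Lmx1b probe on each array (upper panels) above the log2 of the summed signal of a marker list (lower panels), with A+/G+ replicates in blue, A-/G+ replicates in magenta, open circles where a factor was not well above background and axes of equal span. Gbx2 and the meningeal sum have the same order of arrays, as does the sum of the roof plate and rhombic lip genes, which is not drawn. Lmx1a and the choroid plexus sum, which is mostly Ttr, have the same order within each fraction. Single markers of both lists depart from these orders. Of the Lmx1b points only the last, at 5.28, was well above background.

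Astroglial and progenitor markers were read beside En2 and Pax3, whose means were higher in A-/G+, although Pax3 passed on its dimmer probe only. Of 8 markers of Bergmann and radial glia, 7 were higher in A-/G+ and 5 passed, namely Gdf10, Wif1, Hopx, Nes and Tnc. Without A+/G+ replicate 2, 3 passed, whereas 7 did without A-/G+ replicate 3, and 7 with the filter on dim probes. Gdf10 and Wif1 were at 9.99 and 7.89 on average in A+/G+ and at 12.99 and 10.97 in A-/G+ (adjusted p = 0.00745 and 0.00849). Each of the 8 was measured on every array, and their summed signal was 16.73 to 16.91 in A+/G+ and 16.86 to 17.59 in A-/G+. This sum is mostly Fabp7, the marker that was not higher in A-/G+ (difference 0.06, adjusted p = 0.884 from limma). The median difference of the 8 was -1.48. Slc1a3, which encodes the GLAST antigen of both fractions, was 13.39 on average in A+/G+ and 14.59 in A-/G+ and well above background on every array. It did not pass (difference -1.19, adjusted p = 0.0733 from limma). It did with normexp (adjusted p = 0.0263), with a 75th percentile shift (0.0465) and with the filter on dim probes. Of 9 markers of GABAergic interneuron precursors, Ptf1a and Kirrel2, both of progenitors, passed as higher in A-/G+ and Gad1 and Slc32a1, which make and load GABA, as higher in A+/G+. Pax2, the defining marker of young interneurons, was well above background on no array. Their sum was 11.23 to 11.60 in A+/G+ and 11.50 to 12.13 in A-/G+. Of 10 markers of the granule lineage 5 had the higher mean in each fraction. Zic2 and Pax6 passed, both higher in A-/G+, while Atoh1 and Barhl1 had differences of 1.29 and 1.10 in the other direction and did not pass (adjusted p = 0.263 and 0.456). Cbln1 had the largest difference of the list, 2.48, with fractions that did not overlap, and it did not pass either (adjusted p = 0.1335 from limma). The sum was 14.13 to 14.37 and 14.69 to 14.96 and is mostly Zic1, at 13.95 and 14.55 on average (adjusted p = 0.0803). The part of these cells in the En2 and Pax3 differences was not tested.

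For Pax3, which also marks neural crest, 4 melanocyte and 3 Schwann cell markers were read. Dct passed as higher in A+/G+ (adjusted p = 0.00417) but was measured on 2 arrays only, Tyr was on none, and the melanocyte sum, which is mostly Mitf, was 8.62 to 8.75 in A+/G+ and 7.30 to 9.09 in A-/G+. No Schwann cell marker passed, and the sums, mostly of Pmp22, which many cells express, were 10.39 to 10.48 and 10.20 to 10.45. Gjb1 had no usable spot on A+/G+ replicate 3 and was left out of the sum there. Of 5 microglial markers, Aif1 and Cx3cr1 first, none passed, with sums of 10.22 to 11.02 and 10.52 to 11.90.

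The other genes of the network were read from 5 lists with 38 genes in all, of which 11 passed the adjusted p, beside 13% of all genes and 18.8% of those measured on all arrays. The median difference of these 38 genes was -0.16, beside -0.03 for all genes.

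Of 11 isthmic signals and genes that answer to them, 1 passed in each direction and the median difference was -0.17. Fgf18, a ligand of the Fgf8 group, was 6.71 to 7.03 in A+/G+ and 5.83 to 6.10 in A-/G+, where 2 of 3 arrays measured it (difference 0.93, adjusted p = 0.0195). Etv5, an Ets factor switched on by FGF signals, was 12.58, 12.74 and 12.76 in A+/G+ and 13.69, 13.52 and 13.30 in A-/G+ (difference -0.81, adjusted p = 0.0246). Fgf8 itself was measured on all arrays and overlapped between the fractions, from 5.04 to 6.04 in A+/G+ and from 5.37 to 6.28 in A-/G+ (difference -0.48, adjusted p = 0.531). Wnt1 overlapped as well, from 5.96 to 6.50 and from 5.98 to 7.28 (difference -0.23, adjusted p = 0.740). The feedback genes Spry1, Spry2, Dusp6 and Il17rd did not pass, and Fgf17 and Spry4 were well above background on no array.

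Of 7 other transcription factors of the region, Sp8 and Meis2 passed with more signal in A+/G+ and Irx2 with more in A-/G+. The median difference of the list was 0.54. Sp8, which keeps up Fgf8 at the isthmus, was 5.32, 5.30 and 5.95 in A+/G+ and well above background on no A-/G+ array. The gap was at least 1.54-fold, counted against the lowest signal well above background on each A-/G+ array (adjusted p = 0.00380). Meis2, a homeodomain partner of Otx2 and Pax factors, was 8.83, 8.25 and 8.53 in A+/G+ and 4.20, 2.36 and 4.61 in A-/G+, where 1 of 3 arrays measured it (adjusted p = 0.0187). The fitted difference of 4.81 rests mostly on A-/G+ values not well above background, and it was 2.39 with normexp. Irx2, an Iroquois factor of the cerebellar anlage, was 8.93, 8.98 and 9.04 and 10.08, 10.12 and 9.59 (difference -0.94, adjusted p = 0.0338). Otx2, which faces Gbx2 across the isthmus, was 10.82, 10.88 and 10.59 in A+/G+ and 10.30, 9.12 and 11.15 in A-/G+. These overlap, and the difference of 0.57 had an adjusted p of 0.567.

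Of 6 cofactors of Engrailed and Pax proteins, 3 passed, and the median difference was -0.28. Pbx3, a homeodomain partner of Engrailed, was higher in A-/G+ by a narrow gap with little spread, at 10.18, 10.25 and 10.19 against 10.93, 11.02 and 11.00 (difference -0.78, adjusted p = 0.00527). Of the Groucho corepressors, Tle3 was higher in A-/G+ (difference -0.35, adjusted p = 0.0341) and Tle2 in A+/G+ (difference 1.07, adjusted p = 0.0478). Pbx2, Tle1 and Tle4 did not pass.

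Of 8 genes of roof plate and rhombic lip, 1 passed in each direction and the median difference was 1.04. Msx2, a homeodomain factor switched on by BMP signals, was 8.30, 8.57 and 8.90 in A+/G+ and 11.81, 12.11 and 11.01 in A-/G+ (difference -3.05, adjusted p = 0.0124). Bmp6, a BMP ligand, was 9.46, 10.08 and 9.83 in A+/G+ and 7.70, 7.74 and 7.25 in A-/G+ (difference 2.23, adjusted p = 0.00986). Both are past the 4-fold limit on the medians, at 9.43-fold and 4.39-fold. Gdf7, Msx1, Bmp7, Atoh1 and Barhl1 did not pass, and Wnt3a was measured on no array. Of the 11 genes only Pax6 and Sp8 passed under each alternative read for the gene lists but the replicate block. The size of the Sp8 difference moved widely over them, from 0.90 to 3.75, and that of Pax6 was -1.62 to -1.29. The methods' t-test was not among these alternatives.

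**Figure D4:**
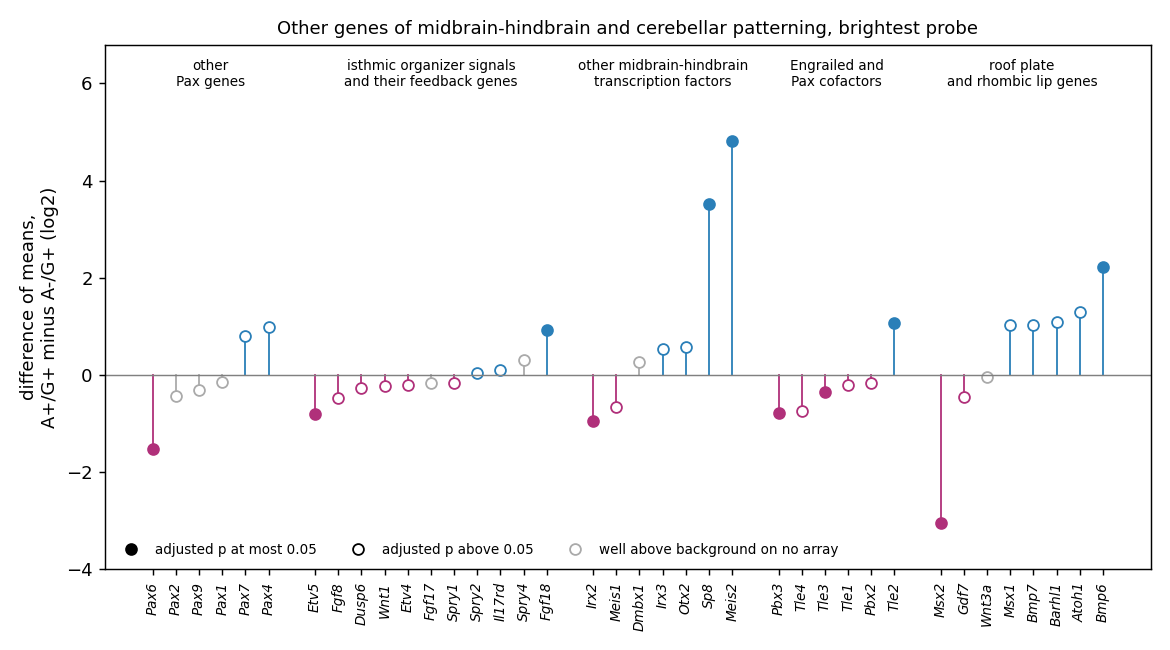
Difference of the fraction means for 38 other genes of midbrain-hindbrain and cerebellar patterning (vertical axis, log2 units, A+/G+ minus A-/G+), ordered within 5 lists, with filled points where the adjusted p was at most 0.05 and gray points for genes well above background on no array. Msx2 lies at -3.05 and Bmp6 at 2.23, and the Meis2 and Sp8 points at 4.81 and 3.53 are fitted values against A-/G+ signals that were mostly or wholly not well above background.

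The genes whose pattern over the 6 arrays was most like that of each measured factor were named by Pearson's r among 10328 genes well above background on all arrays. For En2 they were Ptf1a (r = 0.99889), Wif1 (0.99888) and Chd1l (0.99817). For Pax3 they were Fgfr2 (0.99702), Rad50 (0.99641) and Peg12 (0.99627). For Gbx2 they were Dab2 (0.99980), Nid2 (0.99933) and Cebpd (0.99883), and for Lmx1a they were Ppfibp2 (0.98986), Tmem91 (0.98675) and Ehd4 (0.98487). The gap between the fractions alone makes such values high, and the points share slide and fraction, so that they are a description of 6 arrays.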

How the data were processed

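Gene expression was read from 6 Agilent mouse arrays with a single dye, 3 of A+/G+ and 3 of A-/G+, each of 62976 spots. The authors deposited the scanner output, in which Feature Extraction 10.7.3.1 (per the file headers) gives each spot's background-corrected intensity, and a quantile-normalized table of log2 values, used as an alternative. Here 59305 non-control spots, without those marked as outliers, were taken to log2, quantile normalized in limma 3.58.1 (R 4.3.3) and averaged per probe. No dim probe was removed. Groups and replicate numbers come from sample titles. Probe names and positions are the array's, on mm9; its gene models were not used here, so that exon and UTR are not stated. All 9 symbols were found in RefSeq (GRCm38.p6, names only).

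limma compared the fractions over 55681 probes. The members and gene lists were chosen with earlier results of these data known, and some list genes are not reported here and not counted. Named are all members, genes past the adjusted p of 0.05 in each pathway list (up to 4 by size), and of each marker list the first 2 genes and the 2 largest that passed, with further markers named after their values were seen. A gene not well above background in a fraction is given as "at least N-fold", against the lowest signal well above background there. The fit was tested on simulated data. Alternatives were a 75th percentile shift, normexp (offset 50), the authors' table, outlier spots kept, only probes well above background in a fraction, the methods' t-test, trend and robust variance, the mean of a gene's probes, a 2-fold limit, the replicate block and each array left out. The gene lists were read only under the shift, normexp, the authors' table, the filter on dim probes, the block and each array left out.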

Additional observations from a re-analysis of the deposited data

How the results depend on the processing

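The main limits are 3 arrays per fraction, a slide for each fraction, which leaves no slide block to fit, and fewer probes well above background on the A-/G+ arrays. The count of called factors, 1, was 2 with a 2-fold limit on the medians, which adds En2, and 1 under the other scalings, filters, tests and left-out arrays. The count past the adjusted p, 2, was between 1 and 3 with an array left out. Over all probes, 1073 were called, and the count was 282 with normexp, 608 with the methods' t-test, 3137 with a 2-fold limit and between 417 and 1948 with an array left out, the last without A-/G+ replicate 3. Of these calls 851 were higher in A+/G+ and 222 lower, and a 75th percentile shift, under which the median difference of all probes was -1.02 in place of -0.04, gave 604 higher and 938 lower. That of genes well above background on all arrays was -0.09 under the shift and -0.05 otherwise. The causes of these changes were not tested.

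Gbx2 kept its direction under 15 alternatives, with a difference of 2.89 to 3.82, and passed in 14. En2 kept its direction under 15, with -1.55 to -1.32, and passed in 12. The brighter Pax3 probe passed in 5 of 15 and the dimmer probe in 6 of 14, in the same direction throughout. Lmx1a passed in none of 15. Lmx1b turned from -0.64 to 0.32 without A-/G+ replicate 3, its only measured array, and was at -1.27 without A-/G+ replicate 2.

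With the replicate number as a block, the counts were 0 factors called, 0 past the adjusted p and 0 probes called, and the adjusted p was 0.0850 for En2 and 0.0645 for Gbx2. The deviations of same-numbered arrays from their fraction means correlated at 0.20, 0.11 and -0.11 for numbers 1, 2 and 3. Those of differently numbered arrays correlated at -0.24 to 0.17. With so few arrays these values do not decide whether same-numbered pools were prepared together, and the titles give only a number.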
